A study of Mus musculus with 27 samples.

Results

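The 8 genes Col1a1, Col1a2, Col3a1, Col5a1, Col5a2, Col5a3, Col11a1 and Col24a1 encode chains of the fibril-forming collagens. They were taken by name from the 37991 genes measured in every profile, and all 8 were among the 15659 genes that passed the filter on low counts. The profiles were of mouse calvarial cells, that is, cells released from the flat bones of the skull vault of mice aged 5 to 9 days. All mice were of the strain C57BL/6J-Col3.6 CFP, in which a fragment of the type I collagen promoter drives a cyan fluorescent protein. Cells bearing that protein were sorted and returned to culture with ascorbic acid and beta-glycerol phosphate. They were profiled on days 2, 4, 6, 8, 10, 12, 14, 16 and 18. The day was the only difference between the groups that their labels gave. No untreated culture or other genotype was among the samples, and since the cells were selected on the activity of a type I collagen promoter, the level of Col1a1 is not independent of how they were chosen.

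The 3 profiles of each day bore the same barcode and came from 3 sequencing lanes. For genes with whole-number counts their values agreed within sampling noise (chi-square per degree of freedom 0.999 to 1.02, over 9352 to 10045 genes), and they were therefore summed and counted as 1 library per day, although the study describes them as triplicate samples. Each day then rested on 1 library of 22470195 to 62009157 counts, so that a difference between cultures or preparations cannot be told apart from a difference between days. The spread between cultures of the same day was not measured, and the spread given below is that of days around a fitted line, or counting error, where stated.

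Fibrillar collagens are made as procollagens whose 3 chains wind into a triple helix that requires glycine at every turn of a repeating Gly-X-Y triplet. Type I collagen, a trimer of Col1a1 and Col1a2 chains, is the bulk of bone matrix. Type III collagen, a trimer of Col3a1 chains, mixes with type I in skin, vessels and early repair tissue, whereas the minor types V and XI lie inside the fibrils of type I and type II, where they start fibrils and limit their width. Type V and type XI chains can assemble together, and Col24a1 encodes a chain of type XXIV collagen, described in developing bone.

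The repeat is visible in the genes themselves. In the longest coding sequence of each gene (GENCODE annotation of NCBIM37), the unbroken Gly-X-Y run held 338 triplets in Col1a1, 339 in Col1a2, 344 in Col3a1, 338 in Col5a1, 339 in Col5a2, 337 in Col5a3 and 338 in Col11a1. The longest run of Col24a1 was 216 triplets and covered 37.4% of its codons, against 69.8% in Col1a1. The first 8 triplets of this run are given here for the partner chains Col1a1 and Col1a2, for Col5a1 and Col5a3, which followed different courses over the days, and for Col24a1, whose run was the shortest. Capitals mark the glycine codons, and each line is read along the coding strand.
Col1a1: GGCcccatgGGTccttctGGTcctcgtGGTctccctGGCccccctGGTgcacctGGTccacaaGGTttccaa
Col1a2: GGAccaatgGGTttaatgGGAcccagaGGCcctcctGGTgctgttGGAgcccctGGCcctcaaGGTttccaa
Col5a1: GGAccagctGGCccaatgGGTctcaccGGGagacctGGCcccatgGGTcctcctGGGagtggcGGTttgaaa
Col5a3: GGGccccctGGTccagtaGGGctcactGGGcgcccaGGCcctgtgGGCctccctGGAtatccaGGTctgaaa
Col24a1: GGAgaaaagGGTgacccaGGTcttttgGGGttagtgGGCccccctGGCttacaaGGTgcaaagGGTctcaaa
These coding bases are exonic and lie at chr11:94800765-94801235 (Col1a1, plus strand), chr6:4462406-4465498 (Col1a2, plus), chr2:27819600-27820797 (Col5a1, plus), chr9:20605539-20605704 (Col5a3, minus) and chr3:144988692-145000790 (Col24a1, plus) of NCBIM37, spans that include the introns between the 2 or 3 exons holding each stretch. Over the 28 pairs of genes, the longest identical stretch between the full transcripts, which include the untranslated ends, was 16 to 32 bases. The longest was between Col5a1 and Col5a3. The counts of 7 of the 8 genes were whole numbers in every profile. The exception was Col5a1, whose estimated counts were fractional. Sharing of reads between chains was not tested.

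Type I collagen dominated the group at every time point. Levels between genes were compared as TPM (a relative transcript abundance that divides counts by transcript length), scaled here to the upper quartile of each profile. Col1a1 (chr11:94797538-94814356, plus strand) averaged 3149 ± 979 TPM (SD over 9 days) and ranked 15th of all genes by mean level. Col1a2 (chr6:4454814-4491543, plus) averaged 2825 ± 1171 TPM and ranked 19th. Col3a1 (chr1:45368383-45406551, plus) followed with 1017 ± 462 TPM, Col11a1 (chr3:113733458-113923636, plus) with 321 ± 154 TPM, Col5a2 (chr1:45431166-45560127, minus) with 320 ± 21.2 TPM and Col5a1 (chr2:27741945-27895034, plus) with 205 ± 15.2 TPM. The lowest were Col5a3 (chr9:20574494-20619511, minus) at 7.29 ± 5.31 TPM and Col24a1 (chr3:144955436-145214975, plus) at 4.43 ± 3.48 TPM. In this order, Col1a1 and Col1a2, Col11a1 and Col5a2, and Col5a3 and Col24a1 were neighbours whose means differed by less than their SD over days. The levels of the type V chain Col5a3 and of Col24a1 were thus far under those of Col5a1 and Col5a2 throughout.

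**Figure D1:**
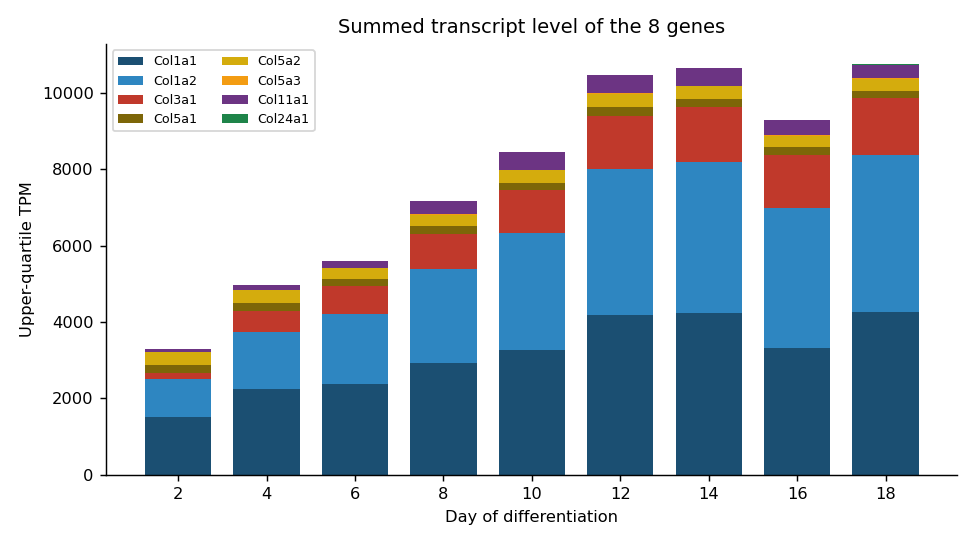
Stacked bars of upper-quartile-scaled TPM for the 8 genes on each day of differentiation (1 library per day, mean of its 3 profiles, axis from 0). The bars went from 3294 TPM at day 2 to 10746 TPM at day 18, with a lower bar on day 16 (9302 TPM), and Col1a1 with Col1a2 made up 75% to 78% of each bar after rounding.

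Together the 8 genes took 1.06% of all counts at day 2, 1.53% at day 4, 1.77% at day 6, 2.28% at day 8, 2.64% at day 10, 2.83% at day 12, 3.06% at day 14, 2.66% at day 16 and 3.02% at day 18. The share of type I collagen within the summed TPM stayed between 75% and 78%. The other types shifted. Type III collagen went from 4.86% of the summed TPM on day 2 to 13.8% on day 18, while the 3 type V chains together went from 16.4% to 4.88%. Col11a1 held 2.57% at day 2, 5.42% on day 10 and 3.32% on day 18. In such bulk samples, fewer cells of a type and less RNA per cell cannot be told apart.

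To ask which genes followed the day, a straight line in day was fitted to the estimated counts of the 9 libraries across all genes (edgeR quasi-likelihood test), and each fitted change spans day 2 to day 18. Of the 8 genes, 6 rose (adjusted p under 0.05 over all 15659 genes) and 0 fell. The background was high, with 54.3% of all genes tested passing, 28.3% rising and 26.1% falling. The median fitted log2 change was 2.02 over the 8 genes and 0.05 over all genes tested. A natural spline in day, which also picks up changes that turn back, called 6 of the 8 genes and 59.7% of all genes. The genes not called by either were Col5a1 and Col5a2.

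**Figure D2:**
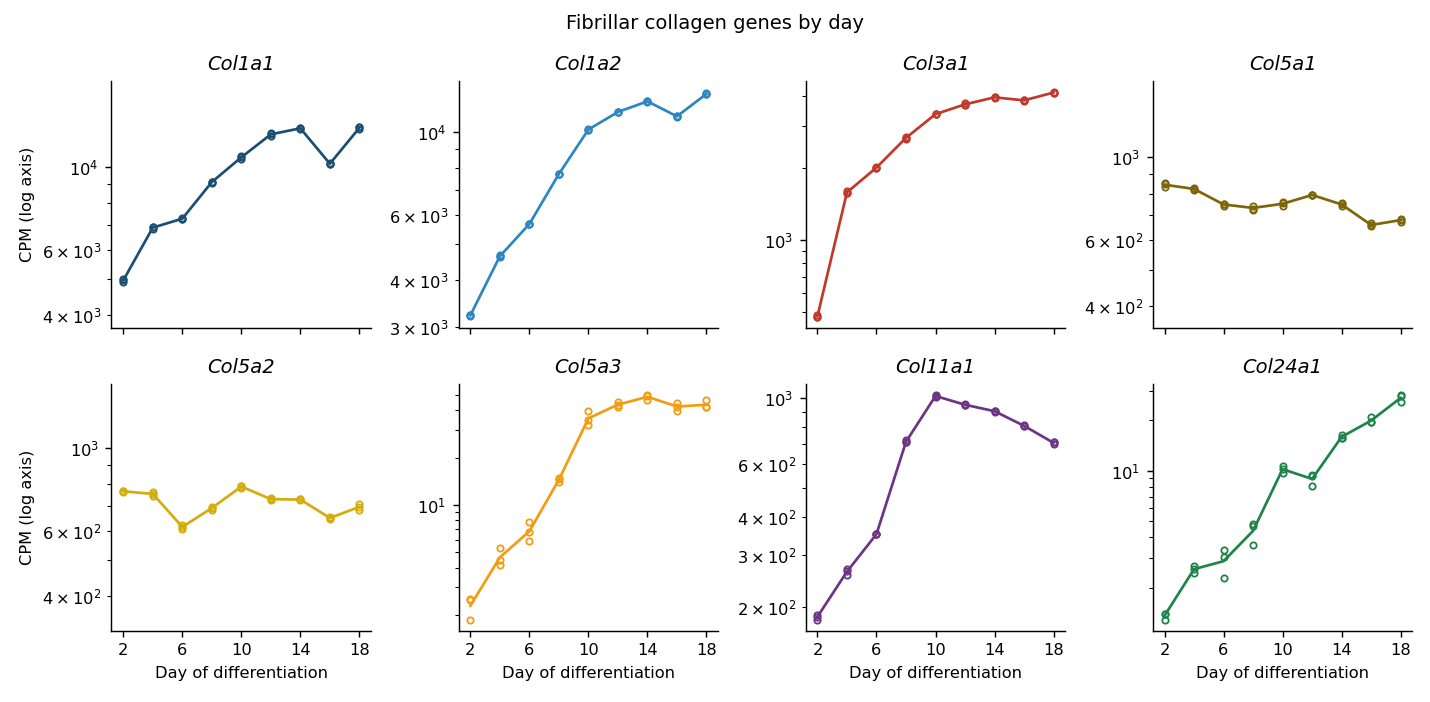
CPM (counts scaled to the library total with upper-quartile factors) of each gene by day on log axes, whose span differs between panels. Lines join the summed library of each day and open circles are its 3 lane profiles; 5 of the rising genes were lowest on day 2 and highest on day 14 or 18, Col11a1 peaked on day 10, and Col5a1 and Col5a2 stayed within a 1.28-fold range.

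The main chain of type I collagen, Col1a1, had 4963 CPM (counts scaled to the library total with upper-quartile factors) at day 2, 6872 at day 4, 7263 at day 6, 9104 at day 8, 10608 at day 10, 12223 at day 12, 12687 at day 14, 10195 at day 16 and 12724 at day 18. The level was lowest on day 2, and day 16 was the 1 day with a lower level than the day before it. With 1 library on each day, that step could not be set against a spread between cultures. Col1a1 rose by a fitted log2 change of 1.23 (SE 0.23, edgeR adjusted p = 0.00131), with day 18 at 2.56 times day 2.

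Its partner Col1a2 had 3224 CPM at day 2, 4645 at day 4, 5666 at day 6, 7717 at day 8, 10152 at day 10, 11314 at day 12, 12079 at day 14, 11013 at day 16 and 12649 at day 18. It thus took the same order of days as Col1a1 from day 2 to day 14, with a smaller step down on day 16. The fitted log2 change was 1.92 (SE 0.28, edgeR adjusted p = 0.000295), and day 18 was 3.92 times day 2. Because the 2 chains are parts of 1 trimer, their ratio was tested against day. Col1a2 over Col1a1 was 0.644 at day 2, 0.67 at day 4, 0.781 at day 6, 0.832 at day 8, 0.945 at day 10, 0.921 at day 12, 0.93 at day 14, 1.1 at day 16 and 0.965 at day 18 (ratio of TPM). The ratio was lowest on the first 2 time points, and day 16 was the 1 day on which Col1a2 exceeded Col1a1 in TPM. It rose with day (Spearman's rho 0.933, Pearson's r 0.920 of the log2 ratio, n = 9 days; exact permutation test over days, two-sided, adjusted p = 0.0015 and 0.00103 over 10 ratios). Without days 2 and 18, r was 0.942 (exact permutation p = 0.00198).

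Col3a1, the only chain of type III collagen, had the largest early step. Its levels were 481 CPM at day 2, 1585 at day 4, 2012 at day 6, 2679 at day 8, 3365 at day 10, 3698 at day 12, 3957 at day 14, 3843 at day 16 and 4144 at day 18. Day 4 stood at 3.3 times day 2, and the steps after day 10 were small. Among all genes tested, 8.89% were at least 2-fold higher on day 4 than on day 2 (1 library each, no test), and of the 8 genes Col3a1 and Col5a3 (2.03 times) passed that mark, with Col24a1 just under it at 1.9 times. The fitted log2 change of Col3a1 was 2.30 (SE 0.52, edgeR adjusted p = 0.00362). Against Col1a1, its TPM ratio went from 0.105 on day 2 to 0.248 on day 4 and 0.347 on day 18 (rho 0.933, r 0.747; exact permutation test, adjusted p = 0.0015 and 0.00141). Without days 2 and 18, r was 0.894 (exact permutation p = 0.00317).

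The neighbour of Col3a1 on chromosome 1 is Col5a2. The pair lie tail to tail, 24614 bases apart, with 0 protein-coding genes between them in the NCBIM37 annotation. Their courses differed. Col5a2, a chain of type V collagen, had 765 CPM at day 2, 753 at day 4, 614 at day 6, 690 at day 8, 788 at day 10, 729 at day 12, 727 at day 14, 649 at day 16 and 695 at day 18. Early and late days overlapped, with the lowest value on day 6 and the highest on day 10. Its fitted log2 change was -0.09 (SE 0.13, edgeR adjusted p = 0.609).

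Col5a1, the chain present in most type V trimers, had 845 CPM at day 2, 823 at day 4, 748 at day 6, 732 at day 8, 751 at day 10, 793 at day 12, 748 at day 14, 659 at day 16 and 679 at day 18. The 2 earliest days were the highest and the 2 latest the lowest. Its fitted log2 change of -0.28 (SE 0.11) narrowly missed the threshold (edgeR adjusted p = 0.0507), and passed it with TMM factors (-0.32, adjusted p = 0.029) and with DESeq2 (-0.31, adjusted p = 0.0122). In TPM, day 18 was 0.972 times day 2, whereas in CPM it was 0.803 times. The effective length that divides the counts of Col5a1 was 5881 to 6171 bases on day 2 and 5320 to 5355 bases on day 18, and limma on log2 TPM gave a change of 0.04 (adjusted p = 0.791), so that the small decrease in counts was not seen once divided by this moving length.

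Against the rising type I chains, both genes lost ground. Col5a1 over Col1a1 went from 0.135 on day 2 to 0.0471 on day 18 (rho -0.95, r -0.916; exact permutation test, adjusted p = 0.00118 and 0.000276), and Col5a2 over Col1a1 from 0.218 to 0.0732 (rho -0.95, r -0.915; exact permutation test, adjusted p = 0.00118 and 0.000459). Without days 2 and 18 the r values were -0.908 and -0.891 (exact permutation p = 0.00397 and 0.00635). The ratio of Col5a2 to Col5a1, both parts of the common type V trimer, lay between 1.43 and 1.75 and did not pass (rho -0.367, r -0.373; exact permutation test, adjusted p = 0.336 and 0.319). Its direction depended on the length used. With CPM divided by 1 fixed length per gene, rho was 0.750 (exact permutation test, adjusted p = 0.0319).

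The third type V chain, Col5a3, followed another course from a low base. It had 2.29 CPM on day 2 (98 counts, 95% Wilson interval 1.88 to 2.79 CPM), 4.65 at day 4, 6.81 at day 6, 14.5 at day 8, 35.6 at day 10, 43.5 at day 12, 48.8 at day 14, 42.3 at day 16 and 43.4 at day 18. The level climbed up to day 14 and was lower on days 16 and 18. The lowest of days 10 to 18 (35.6 CPM) stood above the highest of days 2 to 8 (14.5 CPM). The fitted log2 change was 4.56 (SE 0.74, edgeR adjusted p = 0.000578). Ratios of Col5a3 were taken with 0.1 TPM added to both genes, which raised those of day 2, where it had 0.633 TPM. Col5a3 over Col5a1 went from 0.00355 to 0.0593 (rho 0.95, r 0.932, exact permutation test, adjusted p = 0.00118 and 0.00022). Even on its highest day, day 16, the ratio was 0.0616. Without days 2 and 18, r was 0.940 (exact permutation p = 0.000397). Against Col1a1 the ratio went from 0.00048 to 0.00279 (rho 0.833, r 0.917; exact permutation test, adjusted p = 0.0118 and 0.000937). That rank correlation fell short of the threshold without day 2 (rho 0.762, exact permutation test, adjusted p = 0.0525), and without days 2 and 18 r was 0.941 (exact permutation p = 0.000397).

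Col11a1, a chain of type XI collagen that is abundant in cartilage, was the one gene of the group with a clear peak. It had 186 CPM at day 2, 263 at day 4, 351 at day 6, 714 at day 8, 1015 at day 10, 949 at day 12, 903 at day 14, 807 at day 16 and 708 at day 18. The steepest step was from day 6 to day 8, and each day after day 10 was lower than the one before, ending at 69.8% of the peak. By counts the peak was day 10, and by TPM day 12 (483 TPM, against 458 on day 10). The line gave a log2 change of 2.12 (SE 0.60, edgeR adjusted p = 0.0121), which without day 2 was 1.55 (adjusted p = 0.0731), and the spline gave an edgeR adjusted p of 1.47e-06. Over Col1a1, the ratio was 0.0556 at day 2, 0.141 on day 10 and 0.0838 on day 18 and did not pass (rho 0.550, r 0.629; exact permutation test, adjusted p = 0.148 and 0.0825). Col11a1 over Col5a1 was 0.411 at day 2, 2.31 on day 10 and 1.78 on day 18, with a rank correlation that missed the threshold and a linear one that passed it (rho 0.650, r 0.822; exact permutation test, adjusted p = 0.0832 and 0.00638). Without days 2 and 18 its r was 0.829 (exact permutation p = 0.0115), and that of Col11a1 over Col1a1 was 0.738 (exact permutation p = 0.0611). On days 2, 4 and 6 the Col11a1 level was under that of Col5a1 in TPM, and from day 8 onwards above it. In CPM it was still under Col5a1 on day 8 (714 against 732 CPM) and above it from day 10 onwards. The effective length on day 8 was 3142 to 3233 bases for Col11a1 and 5689 to 6060 bases for Col5a1.

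Col24a1 rose on the smallest counts. It had 1.36 CPM on day 2 (58 counts, 95% Wilson interval 1.05 to 1.75 CPM), 2.58 at day 4, 2.88 at day 6, 4.37 at day 8, 10.2 at day 10, 8.92 at day 12, 15.9 at day 14, 19.9 at day 16 and 27.2 at day 18 (1156 counts, interval 25.7 to 28.9 CPM). In CPM it was highest on the last day, whereas in TPM the highest day was day 16 (9.8 TPM, against 7.94 on day 14 and 7.47 on day 18). The fitted log2 change was 4.25 (SE 0.28, edgeR adjusted p = 9.21e-06). In CPM, day 18 was 2.67 times day 10, a ratio that was 0.698 for Col11a1 and 1.2 to 1.25 for Col1a1, Col1a2, Col3a1 and Col5a3.

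Its level in TPM was less certain than its counts. Among the 3 lane profiles of day 6, 50, 35 and 47 counts became 0.758, 5.1 and 0.706 TPM, since the effective lengths assigned to them were 6864, 696 and 6864 bases. Over all days, the coefficient of variation between lane profiles was at the median 5.1% in CPM and 40.8% in TPM, with a highest value of 115% in TPM. No other gene of the 8 had a median above 5.91% in TPM. With 0.1 TPM added to both genes, the ratio of Col24a1 to Col1a1 went from 0.000266 on day 2 to 0.00178 on day 18. Col24a1 itself had 0.307 TPM on day 2, so the added 0.1 raised the ratio of that day. The rho of this ratio was 0.9 and its r 0.860 (exact permutation test, adjusted p = 0.00338 and 0.00494). Without days 2 and 18, r was 0.823 (exact permutation p = 0.0254). With 1 fixed length per gene, rho was 0.983 (exact permutation test, adjusted p = 0.000248).

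**Figure D3:**
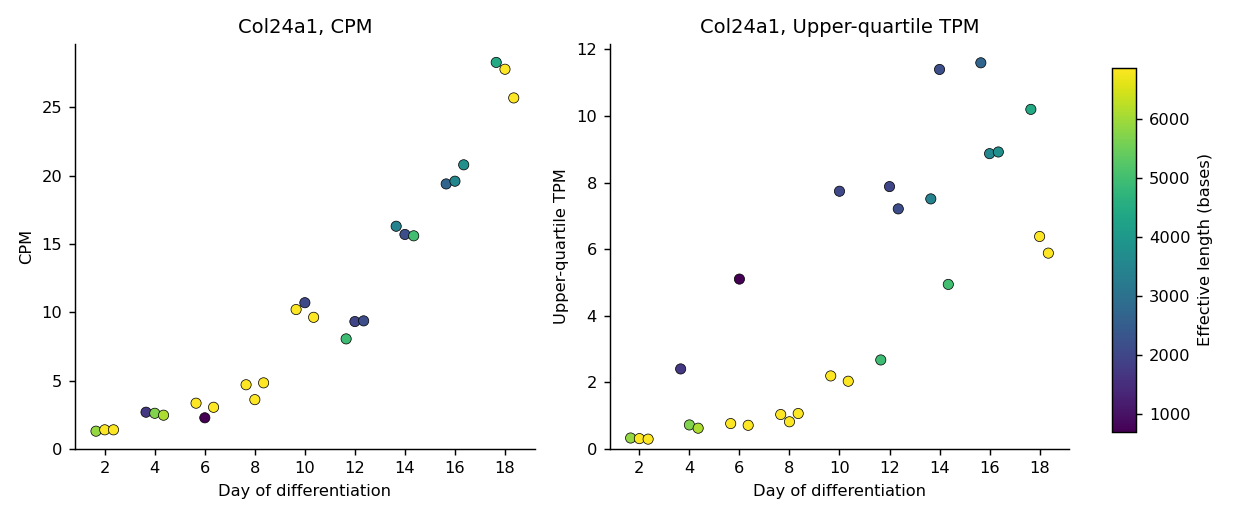
Col24a1 in each of the 27 lane profiles by day, as CPM (left) and as upper-quartile-scaled TPM (right), both axes from 0, with the effective length in colour; the 3 profiles of a day are set side by side. On day 6 the 3 profiles had 2.27 to 3.34 CPM but 0.706 to 5.1 TPM, and the profile with the highest TPM had the shortest length (696 bases).

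**Figure D4:**
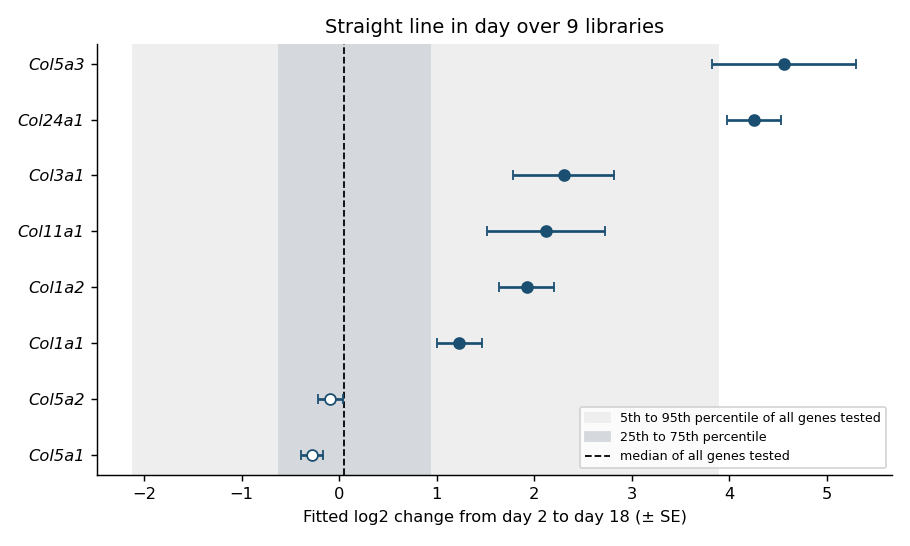
Fitted log2 change from day 2 to day 18 with its SE for each gene (edgeR line in day, 9 libraries), filled where the adjusted p was under 0.05, over the spread of all genes tested (bands from -0.62 to 0.93 and from -2.11 to 3.88, dashed median at 0.05). Col5a3 (4.56) and Col24a1 (4.25) lay beyond the 95th percentile of all genes, and Col5a2 (-0.09) and Col5a1 (-0.28) within the middle band.

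In all, 7 of the 10 chain ratios followed the day in rank. The 7 ratios to Col1a1 share their denominator and are not independent of one another. Scaling of the libraries enters a ratio only through the pseudocount of 0.1 TPM, which weighs on the low levels of Col24a1 and Col5a3 on the first days. The smallest p that 9 days allow is 5.51e-06.

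**Figure D5:**
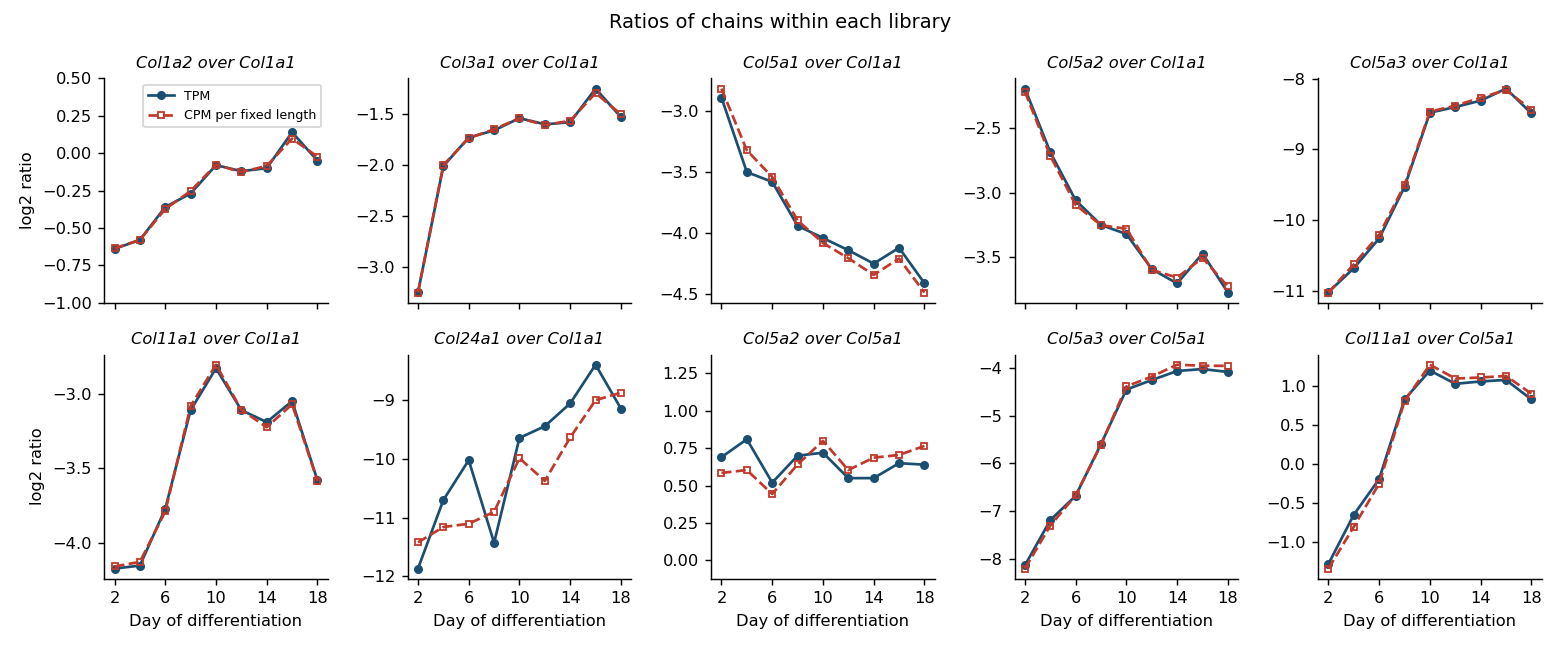
Log2 ratios of TPM (filled circles) and of CPM per fixed length (open squares), each plus 0.1, for the 10 pairs of chains by day. Each day is 1 library, and vertical spans differ between panels. Col1a2 and Col3a1 rose relative to Col1a1, Col5a1 and Col5a2 fell relative to it, and the circles and squares part most for Col24a1 over Col1a1 and Col5a2 over Col5a1.

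The 6 rising genes were correlated over the days, although from day 10 to day 18 Col11a1 went down in CPM and the other 5 ended higher. Pearson's r of log2 CPM over the 9 days was 0.986 between Col1a1 and Col1a2, 0.994 between Col1a2 and Col5a3 and 0.837 between Col11a1 and Col24a1, the lowest among them. Col5a1 and Col5a2 had an r of 0.585 with each other, and Col5a1 had an r of -0.614 with Col1a1. These values describe 9 libraries that share the same days and scaling, and many genes moved with day. Among 7613 other genes with a mean of at least 10 TPM, 1288 had an r of at least 0.9 with Col1a2, 1335 with Col5a3, 687 with Col3a1, 17 with Col5a1 and 0 with Col5a2. The 2 most similar genes were Col6a1 and Tcea3 for Col1a1 (r 0.989 each), Igf1 and Smarca2 for Col1a2 (0.998 each), and Tgfbr2 (0.997) and Dnm1 (0.994) for Col3a1. They were Ankrd11 (0.958) and Ap1ar (0.954) for Col5a1, Bptf (0.880) for Col5a2, for which 1 gene is given, and Thra and Gas1 (0.998 each) for Col5a3. For Col11a1 they were Rab9 (0.997) and Postn (0.995), the latter encoding the matrix protein periostin, and for Col24a1 Zyg11b (0.995) and Mettl7a1 (0.994).

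Because 6 of the genes rose, their promoters were read for short motifs. RefSeq promoter windows (GRCm38.p6) were matched for 6 of the 8 genes, Col1a2, Col3a1, Col5a1, Col5a3, Col11a1 and Col24a1. Within the 250 bases upstream of the start, on either strand, CCAAT was found in 3 of the 6 windows (33.8% of all 32851 promoter windows of this length), GGGCGG in 4 (32.7%), TATAAA in 1 (12.4%), TGTGGT in 0 (14% of all) and TGANTCA in 0 (6.75% of all). The 150 bases before the start are shown for the 3 genes with CCAAT, all of which rose, and for Col5a1, which did not pass the test. The windows of Col3a1 and Col24a1, which also rose, held no CCAAT and are not shown. Capitals mark matches to CCAAT or GGGCGG on either strand (ATTGG and CCGCCC are the reverse strand), and the motifs do not overlap one another.
Col1a2: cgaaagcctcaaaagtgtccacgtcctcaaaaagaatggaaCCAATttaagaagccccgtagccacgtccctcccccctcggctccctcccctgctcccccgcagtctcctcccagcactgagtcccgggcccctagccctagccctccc
Col5a3: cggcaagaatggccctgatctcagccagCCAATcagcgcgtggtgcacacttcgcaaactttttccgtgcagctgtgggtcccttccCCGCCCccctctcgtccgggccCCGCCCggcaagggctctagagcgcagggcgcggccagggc
Col11a1: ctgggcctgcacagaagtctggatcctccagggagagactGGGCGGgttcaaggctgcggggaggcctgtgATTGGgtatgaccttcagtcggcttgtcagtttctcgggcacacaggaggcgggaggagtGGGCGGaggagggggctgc
Col5a1: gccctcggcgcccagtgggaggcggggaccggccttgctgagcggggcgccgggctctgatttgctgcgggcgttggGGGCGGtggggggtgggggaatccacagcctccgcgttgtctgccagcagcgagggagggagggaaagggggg
They lie at chr6:4505468-4505617 (Col1a2, plus strand), chr9:20815068-20815217 (Col5a3, minus), chr3:114030390-114030539 (Col11a1, plus) and chr2:27886275-27886424 (Col5a1, plus) of GRCm38.p6, each directly upstream of the annotated start. The CCAAT match began at position -109 from the start in Col1a2, at -122 in Col5a3 and at -79 in Col11a1, where it was on the reverse strand. A match describes these letters only, and its share was not compared by a test.

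A further list held 24 genes of other fibrillar collagens, propeptide removal, procollagen folding and export, and collagen receptors, of which 23 were matched and 22 tested. Of these, 12 rose, 6 fell and 4 did not pass the same line test, with a median fitted log2 change of 0.58, where 28.3% of all genes tested rose and 26.1% fell. Among 7 tested genes of propeptide removal, the step that lets collagen assemble into fibrils, 4 rose and 2 fell. The largest rise was that of Adamts2, an amino-propeptidase of type I and III procollagen (4.5 TPM on day 2, 68.6 on day 18; log2 change 3.93, SE 0.63, edgeR adjusted p = 0.000518). Pcolce, an enhancer of the carboxy-propeptidase Bmp1, rose from 288 to 1516 TPM (log2 change 2.38, SE 0.26, edgeR adjusted p = 8.16e-05), and Bmp1 itself from 51.4 to 85.2 TPM (0.49, SE 0.17, adjusted p = 0.0286). Adamts3 rose by 1.66, whereas Adamts14 (-1.88) and the second enhancer Pcolce2 (12.4 to 1.47 TPM, -3.53, edgeR adjusted p = 0.00235) fell. Within this step, related enzymes and enhancers thus moved in opposite directions. Tll1, a relative of Bmp1, did not pass the line (0.44, edgeR adjusted p = 0.468), and Tll2 was under the filter with 2 counts in all. The spline called Tll1 (edgeR adjusted p = 1.82e-06), whereas Bmp1 missed its threshold (0.059).

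Of the 3 other fibrillar collagen genes, Col2a1, the chain of cartilage type II collagen, fell from 111 to 47.8 TPM (log2 change -1.27, SE 0.20, edgeR adjusted p = 0.000498). Col11a2 rose from 0.321 to 5.18 TPM (5.19, SE 0.52, adjusted p = 5.04e-05) and Col27a1 from 0.819 to 6.19 TPM (3.06, SE 0.71, adjusted p = 0.00443). Among 4 matched genes of folding and export, Creb3l1, a transcription factor known to act on Col1a1 in osteoblasts, rose (65.5 to 141 TPM, 1.21, edgeR adjusted p = 0.00019) and the coat protein gene Sec23a fell (-0.54, adjusted p = 0.00171). Serpinh1, which encodes the collagen chaperone HSP47, had 491 TPM on day 2 and 563 on day 18 and did not pass the line (0.23, edgeR adjusted p = 0.159), nor did Ctage5. The spline called Serpinh1 (edgeR adjusted p = 0.0355) but not Ctage5 (0.189). Among 8 collagen receptor genes, 5 rose (Itga1, Itga2, Itga10, Ddr2 and Mrc2, by 0.59 to 3.61 on the log2 scale), Itgb1 (805 to 278 TPM, -1.57) and Ddr1 (-1.17) fell, and Itga11 did not pass the line (0.58, edgeR adjusted p = 0.0663). The spline called Itga11 (edgeR adjusted p = 0.000959).

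The labelled cell type, osteoblast, was checked against 9 markers, all of which were detected on every day. Of these, 6 rose by the line, among them Ibsp (0.581 to 78.4 TPM) and Phex (0.338 to 37.2 TPM), and 3 did not pass, namely Sp7 (32.3 to 10.6 TPM, log2 change -1.23, edgeR adjusted p = 0.233), Alpl (9.13 to 17.6 TPM, 2.22, adjusted p = 0.146) and Spp1 (402 to 532 TPM, -1.17, adjusted p = 0.0932). The spline called each of these 3 (edgeR adjusted p = 1.16e-05, 0.00742 and 0.000421). The summed level of the 9 markers was 492 to 1065 TPM on days 2 to 6, 369 to 645 on days 8 to 12 and 480 to 1226 on days 14 to 18, ranges that overlapped. Spp1 had the highest mean level of the 9 (527 TPM), followed by Bglap2 (54.8 TPM), so the sum gave Spp1 the most weight. Bglap2 (0.795 to 274 TPM) and Bglap (1.24 to 208 TPM) were among the 6 that rose. Markers of other cells moved over the same days, and their counts stand beside the same background of 28.3% rising and 26.1% falling. Of 7 monocyte and macrophage markers, 6 rose, and their summed level was 24.1 to 61.7 TPM on days 2 to 6, 68.1 to 451 on days 8 to 12 and 522 to 2014 on days 14 to 18, most of it Lyz2. All 5 adipocyte markers rose (3.21 to 7.44, 6.51 to 103 and 188 to 407 TPM, with Fabp4 the highest), Cfd being at 0 on 2 days. For 5 fibroblast and tendon markers, of which 4 rose and Scx fell, the sums were 182 to 240, 388 to 944 and 917 to 954 TPM, with Tnmd the highest. Over the same periods, 4 of 4 proliferation markers fell (249 to 296, 86.3 to 263 and 63 to 80.9 TPM). Of 5 chondrocyte markers, 2 rose, Col2a1 fell and the sum was 75.7 to 113, 97.4 to 135 and 118 to 136 TPM, with Matn1 at 0 on 2 days. Endothelial markers summed to at most 12 TPM on any day (2 of 4 rose, 1 fell). The part of these cells in the levels of the 8 collagen genes was not tested.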

How the data were processed

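RNA from mouse calvarial cells on 9 days was amplified with the NuGEN Ovation kit by the authors, sequenced in 3 lanes per day, aligned with Bowtie 0.12.9 to the NCBIM37 transcriptome and quantified with RSEM 1.2.8, per the labels. The authors deposited estimated counts, which are not normalized and need not be whole, since a read that matches several transcripts is shared. The TPM deposited by the authors divide these by an effective length, which moves with the assignment of reads to isoforms. The 3 profiles of a day were summed and rounded (22470195 to 62009157 counts per day). edgeR 4.0.16 in R 4.3.3 fitted a line, or a natural spline with 3 degrees of freedom, in day (quasi-likelihood test with upper-quartile factors, on genes kept by filterByExpr at a minimum count of 10, with Benjamini-Hochberg adjusted p under 0.05). On simulated counts for this line, 62.2% of 98 genes with a log2 change of 1 and 81% of 100 with a change of 2 were recovered, and 5.96% of 151 calls were unchanged genes (15346 genes fitted). The simulated spread beyond counting error was that around the spline (common dispersion 0.01956), not the larger one around the line (0.05807). Far fewer genes were made to change than the 54.3% called in the data, so these rates need not hold for the data. Chain ratios (TPM plus 0.1) were tested against day by exact permutation with numpy 2.4.6, on ranks from scipy 1.17.1 for rho. Wilson intervals cover counting error only. Similar genes were the 2 with the highest Pearson correlation per member. For Col5a2, 1 of the 2 is not reported here. The members and all lists were chosen with earlier results of these data known. Genes named are the 8 members, the procollagen and marker lists and those similar genes. Symbols were found for 37205 of 37991 identifiers, and Mia3 was not matched. Alternatives were TMM factors, DESeq2 1.42.0, other filters, profiles as samples, replicates or days left out, early against late days, other totals, pseudocounts and length corrections. FPKM were not used.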

Additional observations from a re-analysis of the deposited data

How the results depend on the processing

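The call and direction were kept in 315 of 336 recomputed tests of single genes and ratios, over all alternatives run. Of 80 recomputed mean levels in TPM, 46 moved by more than the mean SD between lane profiles of a day. The mean of Col1a1 was 3010 to 3352 TPM and that of Col3a1 959 to 1124 TPM. The direction reversed for Col5a1, whose change was 0.04 with limma 3.58.1 on TPM, and for Col5a2 over Col5a1, whose rank correlation was 0.750 both with estimated counts not divided by length and with CPM per fixed length. limma on TPM and the fixed length were chosen after seeing the data. Between 5 and 7 members followed the day over all alternatives (5 without day 2, where Col11a1 no longer passed, and 7 wherever Col5a1 did), against 7187 to 10881 of all genes. The number of ratios was 6 to 9. With the 27 profiles as separate samples, the replicate block gave 10881 genes and 7 members, against 10754 and 7 without it. Col5a1 was -0.29 (adjusted p = 7.12e-06) with the replicate block. Deviations of profiles that share a number had a mean correlation of 0.0512 (from -0.25 to 0.479), against -0.0257 for different numbers. Deviations from the mean of 3 profiles are tied to one another, so these values cannot decide whether the numbers pair the samples. The shared barcode and counts of a day were read here as lanes of 1 library. If so, the p-values from 27 profiles are too small. Over all alternatives the fitted change of Col5a1 was -0.32 to 0.04 (adjusted p 1.96e-06 to 0.791) and that of Col11a1 1.55 to 2.79 (5.46e-06 to 0.0731), and the rank correlation was 0.762 to 1 for Col5a3 over Col1a1 (0.000248 to 0.0525), -0.642 to 0.750 for Col5a2 over Col5a1 (0.0319 to 0.673) and 0.5 to 0.857 for Col11a1 over Col5a1 (0.0134 to 0.27). TMM factors moved the median change of all genes from 0.05 to 0.0070. Depth limited Col24a1 and Col5a3 on day 2, with 58 and 98 counts.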
